A study of Mus musculus with 12 samples.

Results

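The 10 genes described here encode chaperones and folding enzymes of the endoplasmic reticulum (ER) and regulators of the unfolded protein response: Hspa5, Hsp90b1, Dnajb9, Herpud1, Xbp1, Pdia4, Pdia6, Calr, Creld2 and Manf. They were taken by symbol. Every probe set (a group of short array probes read as 1 value) whose only gene symbol was a member entered, which gave 21 probe sets of the 34945 with 1 symbol, and 10 of 18193 genes. The 12 arrays measured RNA of splenic CD8 T cells from male mice carrying Cre recombinase under the Cd4 promoter, 3 arrays per group. The control groups (WT) were Cd4-Cre/Scap+/+ and the others (KO) Cd4-Cre/Scapfl/fl, so all 4 groups carried the Cre. Quiescent cells are T0, and T6 cells had been activated for 6 h by antibody to CD3 fixed on the plate and soluble antibody to CD28. No group was cultured for 6 h without the antibodies, so activation cannot be told apart from time in culture. Cd4-Cre acts during T cell development in the thymus and is widely used to delete genes in T cells. Age is not stated in the labels. The arrays are labelled biological replicates, but nothing says which arrays came from the same mouse.

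Proteins that enter the ER are folded there by chaperones, joined through disulfide bonds by isomerases and, when they fail to fold, returned to the cytosol for degradation. Unfolded protein is sensed by the membrane proteins IRE1 (gene Ern1), PERK (Eif2ak3) and ATF6, and their outputs are the factor made from spliced Xbp1 mRNA, the factor ATF4, and the cleaved N-terminal part of ATF6. ATF6 and the SREBP factors of lipid synthesis are cut by the same Golgi proteases, encoded by Mbtps1 and Mbtps2, after leaving the ER. Scap encodes the escort protein that SREBPs, but not ATF6, need for that journey. Activated T cells expand their ER as they grow.

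The promoters of several members carry an ER stress response element (ERSE), at which ATF6 and XBP1 are known to act with the factor NF-Y. Of the 10 genes, 9 had an entry in the RefSeq promoter table of build GRCm38.p6, which holds 250 bases before and 50 bases after each gene's start; Manf had none. Each window was searched on both strands for ERSE (CCAAT, any 9 bases, CCACG), for the shorter ERSE-II (ATTGG, any 1 base, CCACG) and for the core of the XBP1-bound UPRE (TGACGTG). These motifs did not overlap in any member. ERSE stood in the windows of 5 of the 9 members, against 39 of all 32851 windows (0.119%). ERSE-II stood in 1 of 9 (Herpud1), against 12 of 32851 (0.0365%), and the UPRE core in 1 of 9 (Hspa5), against 661 (2.01%). Such elements were known in promoters of this kind before the search, so these shares describe the windows and test no enrichment. The matches follow in the motif's own direction, with its fixed letters in capitals, since they are what these promoters share.
Hspa5 (chr2:34772025-34772043, plus strand): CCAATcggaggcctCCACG
Calr (chr8:84847075-84847093, plus strand): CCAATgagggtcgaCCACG
Hsp90b1 (chr10:86705638-86705656, minus strand): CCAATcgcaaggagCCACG
Hsp90b1 (chr10:86705533-86705551, plus strand): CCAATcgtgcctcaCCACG
Pdia6 (chr12:17266491-17266509, plus strand): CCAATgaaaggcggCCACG
Creld2 (chr15:88819520-88819538, minus strand): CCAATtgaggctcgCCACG
Herpud1 (chr8:94386377-94386387, plus strand): ATTGGgCCACG

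Hsp90b1 held the element on each strand, at different positions. The stretches upstream of the start of 4 members follow, 250 bases each, chosen for the different courses of their mRNAs on activation described next: Hspa5 and Pdia6 hold ERSE, Herpud1 holds ERSE-II, and Dnajb9 holds none of the 3 motifs. Capitals mark the matches.
Hspa5 (chr2:34771840-34772089, plus strand): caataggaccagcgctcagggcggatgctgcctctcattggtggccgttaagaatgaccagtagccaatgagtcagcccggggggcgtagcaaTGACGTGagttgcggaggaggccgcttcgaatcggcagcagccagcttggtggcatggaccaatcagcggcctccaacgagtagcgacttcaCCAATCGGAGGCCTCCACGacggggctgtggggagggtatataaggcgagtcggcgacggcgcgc
Pdia6 (chr12:17266339-17266588, plus strand): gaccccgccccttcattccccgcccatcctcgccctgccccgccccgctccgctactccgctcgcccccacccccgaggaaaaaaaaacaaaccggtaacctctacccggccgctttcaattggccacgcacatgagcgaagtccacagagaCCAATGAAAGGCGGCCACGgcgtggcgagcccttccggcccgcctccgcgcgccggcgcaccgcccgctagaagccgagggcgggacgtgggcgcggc
Herpud1 (chr8:94386179-94386428, plus strand): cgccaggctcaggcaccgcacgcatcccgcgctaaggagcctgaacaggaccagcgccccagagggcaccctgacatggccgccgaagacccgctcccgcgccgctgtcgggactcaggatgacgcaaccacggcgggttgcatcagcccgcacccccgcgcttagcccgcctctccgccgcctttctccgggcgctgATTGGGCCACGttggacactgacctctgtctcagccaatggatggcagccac
Dnajb9 (chr12:44210069-44210318, minus strand): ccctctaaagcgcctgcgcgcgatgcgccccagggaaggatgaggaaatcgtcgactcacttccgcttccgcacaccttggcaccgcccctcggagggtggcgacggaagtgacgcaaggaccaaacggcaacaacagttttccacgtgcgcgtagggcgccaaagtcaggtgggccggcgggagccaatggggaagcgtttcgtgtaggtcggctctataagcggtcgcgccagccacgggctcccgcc
The windows of Xbp1 and Pdia4 also held none of the 3 motifs. Calr and Hsp90b1, which hold ERSE too, did not pass the threshold given below on activation in either genotype. The stretches printed therefore do not stand for all members. A match is a run of letters and not a measured binding site, and a window without one says nothing of the factor.

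The trimmed mean signal (percentiles 2 to 98) was 500.00 on every array, and the median signal lay between 61.3 and 76.2. Tests ran on log2(signal + 16) with limma across 13166 genes, and a gene is called changed at a Benjamini-Hochberg adjusted p under 0.05. The 7 CD8 T cell markers on the array averaged between 12.52 and 13.67 (log2 signal) on each array, whereas Cd4 was near background in every group (group means 4.57 to 5.04). Zbtb7b, also of the CD4 list, passed the filter, with group means of 6.02 to 7.36. Cd40lg of that list passed too, with group means of 5.15 to 5.85. Markers of other cells gave signal too: Jchain of plasma cells reached 14.21, Cd74 of B cells 13.45 and Slc4a1 of erythroid cells 13.79 on the highest array. Scap itself was lower in KO by values that were not called (log2 difference -0.25, adjusted p = 0.592 at T0, and -0.47, adjusted p = 0.274 at T6). Which part of Scap was removed relative to the probe was not analysed here, so this does not check the labels. The arrays hold mixed RNA, so fewer cells of a type and less RNA per cell cannot be told apart.

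Activation here means the change from T0 to T6, time in culture included, and it split the 10 genes. In WT cells Pdia6, Manf, Creld2 and Hspa5 rose within 6 h, whereas Dnajb9 and Herpud1 fell. In KO cells Pdia6 rose and Dnajb9 and Herpud1 fell. The fall of Dnajb9 was the largest change among the members in both genotypes, 3.22-fold in WT and 2.50-fold in KO. In WT, 6 of the 10 members were called, 4 higher and 2 lower, where 25.1% of all tested genes were called (11.3% higher and 13.8% lower). In KO, 3 of 10 were called, 1 higher and 2 lower, where 21.0% of all genes were called (10.4% higher and 10.5% lower). The median log2 change of the members was 0.34 in WT and 0.048 in KO, beside -0.062 and -0.0036 over all genes. T0 and T6 arrays did not overlap for 7 members that were higher and 2 that were lower in WT, where 19.2% and 23.6% of all genes had such groups (42.8% together). In KO this held for 2 and 3 members, where it held for 18.9% and 17.7% of all genes (36.5%). Signals of different genes come from different probes and are not set against each other.

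**Figure D1:**
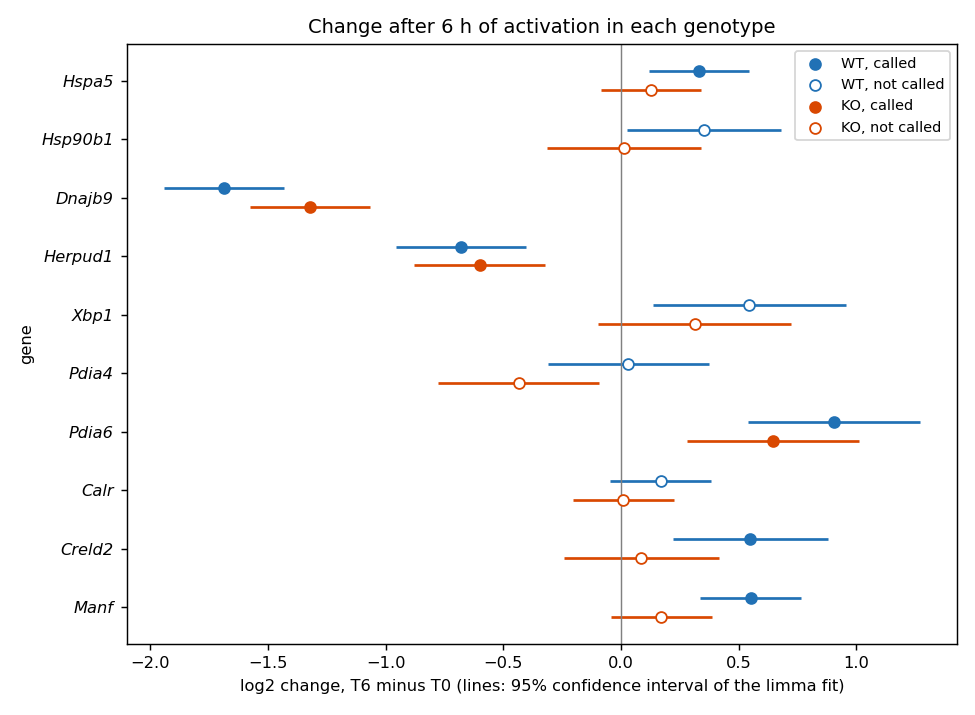
The log2 change of each of the 10 genes from T0 to T6 is plotted on the x axis for WT and KO (points: fitted change; lines: 95% confidence interval; filled points: called). Pdia6 lies highest, at 0.90 in WT and 0.65 in KO, and Dnajb9 lowest, at -1.69 and -1.32.

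Hspa5 encodes BiP, the Hsp70 chaperone of the ER, which binds nascent chains and keeps the stress sensors inactive. The Hspa5 signals were 20818, 16728 and 18991 in WT T0 and 24893, 23041 and 22985 in WT T6 (replicates 1 to 3). In KO cells they were 17834, 18226 and 19388 at T0 and 20729.5, 19865 and 19925 at T6. On this strongest of its probe sets, all 3 WT T6 arrays lay above the other 9, and KO T6 lay above KO T0 without overlap. The WT change was 0.33 (SE 0.10, adjusted p = 0.030), a 1.26-fold rise, and the KO change was 0.13 (SE 0.10, adjusted p = 0.407). The WT call held under 13 of 22 alternatives, the fewest of the 6. It was lost when replicate 2 (adjusted p = 0.105) or 3 (0.067) of WT T0 was left out. The same held for each array of WT T6, at 0.099, 0.059 and 0.059 without replicates 1, 2 and 3. It was also lost with no filter (adjusted p = 0.062), quantile normalization (0.051), a separate fit of the WT arrays (0.089) and the mean of all probe sets, which gave a change of 0.20 (0.163).

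Hsp90b1 encodes the Hsp90 chaperone of the ER, which folds integrins and Toll-like receptors. The 3 WT arrays read 6075, 6525 and 6812 for Hsp90b1 at T0 and 8636, 8027 and 8111 at T6. The KO arrays read 6076, 9211 and 8989 at T0 and 7798, 7795 and 8475 at T6. The WT groups did not overlap, whereas KO T0 had the largest SD of any member in any group, with replicate 1 at the WT T0 level and the other two above every KO T6 array. The WT change was 0.35 (SE 0.15, adjusted p = 0.110) and the KO change 0.011 (SE 0.15, adjusted p = 0.969), neither called. Without KO T0 replicate 1 the WT value was called (adjusted p = 0.017), as it was with median centring (0.047) and in a separate fit (0.044).

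Dnajb9 encodes a J-domain partner of BiP that the IRE1 and XBP1 branch induces and that in turn represses IRE1. Dnajb9 signals went from 6933, 6304 and 6445 (T0) to 2190.0, 1853 and 2048 (T6) in WT. Those in KO went from 5507, 5184 and 5967 to 2245, 1928 and 2484. Every T6 array was below every T0 array, and the KO T0 arrays all lay below the WT T0 arrays. Dnajb9 changed by -1.69 (SE 0.11, adjusted p = 9.3e-06) in WT and by -1.32 (SE 0.11, adjusted p = 4.7e-05) in KO. It stood at rank 54 by p among the 13166 genes in WT and at rank 108 in KO, and it was called under all 22 alternative settings in each genotype.

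Herpud1 encodes an ER membrane protein of the degradation machinery that is strongly induced by ER stress. The Herpud1 signals were 2648, 2025 and 2511 in WT T0 and 1628, 1354 and 1469 in WT T6 (replicates 1 to 3). In KO cells they were 2396, 2745 and 2922 at T0 and 1788, 1795 and 1700.1 at T6. The T0 and T6 arrays did not overlap in either genotype, and KO T6 lay above WT T6. The change was -0.68 (SE 0.12, adjusted p = 0.0032) in WT, a 1.60-fold fall, and -0.60 (SE 0.12, adjusted p = 0.0070) in KO. Both falls were called under all 22 alternatives. In WT, Dnajb9 and Herpud1 thus fell while Hspa5, Pdia6, Manf and Creld2 rose.

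**Figure D2:**
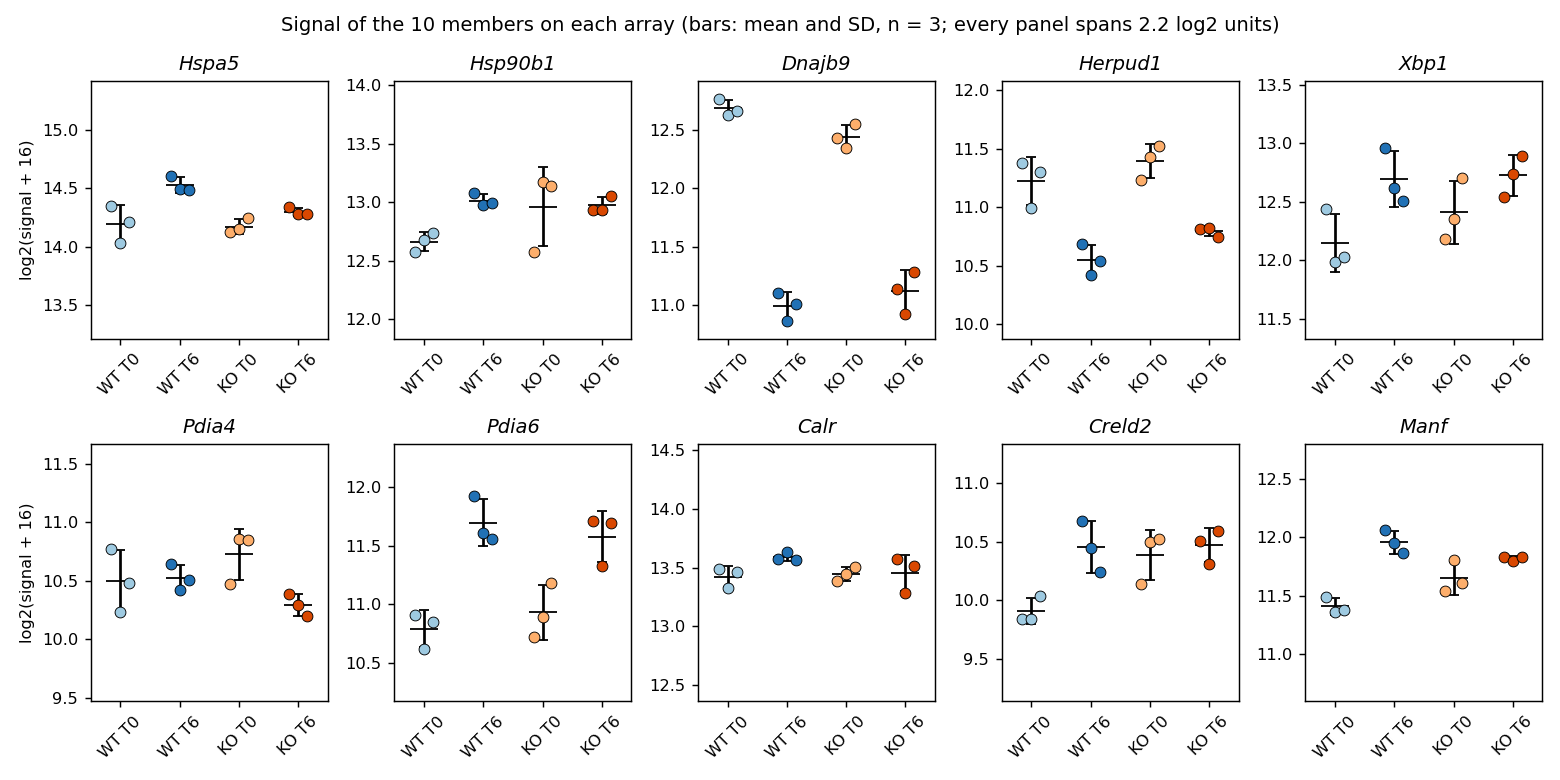
Each panel plots log2(signal + 16) of 1 gene on the y axis for the 3 arrays of WT T0, WT T6, KO T0 and KO T6 (points: arrays; bars: mean and SD), and every panel spans the same height. Dnajb9 drops from group means of 12.68 (WT) and 12.44 (KO) to 11.00 and 11.12, while Calr stays between 13.42 and 13.59.

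Pdia6 and Pdia4 encode protein disulfide isomerases. The 3 WT arrays read 1909.8, 1553 and 1827 for Pdia6 at T0 and 3874, 3108 and 2991 at T6. The KO arrays read 1669.8, 1876 and 2305 at T0 and 3339, 2545 and 3285 at T6. Every T6 array lay above every T0 array. Pdia6 rose by 0.90 (SE 0.16, adjusted p = 0.0030) in WT, 1.87-fold, and by 0.65 (SE 0.16, adjusted p = 0.019) in KO. The WT rise was called under all 22 alternatives, at 0.53 when all its probe sets were averaged. The KO rise was lost without replicate 1 (adjusted p = 0.072) or 2 (0.052) of KO T0, without replicate 1 (0.071) or 3 (0.068) of KO T6, and in a separate fit (0.061).

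Pdia4 signals went from 1735, 1185 and 1414 (T0) to 1588, 1358 and 1439.7 (T6) in WT. Those in KO went from 1406, 1840.0 and 1828 to 1322, 1237 and 1159. WT T0 and WT T6 overlapped, whereas KO T6 lay below KO T0 on every array. The changes were 0.031 (SE 0.15, adjusted p = 0.915) in WT and -0.44 (SE 0.15, adjusted p = 0.074) in KO, so Pdia4 was the member whose fitted changes had opposite signs in WT and KO, with neither called. The KO value was called without KO T0 replicate 1 (adjusted p = 0.040), without WT T0 replicate 1 (0.047) and with a filter at percentile 60 (0.047). The sign in WT turned to -0.10 without WT T0 replicate 2 and to -0.030 without WT T6 replicate 1.

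Calr encodes calreticulin, the lectin chaperone of glycoproteins and a calcium store of the ER lumen. The Calr signals were 11455, 10232 and 11236 in WT T0 and 12144, 12687 and 12124 in WT T6 (replicates 1 to 3). In KO cells they were 10655, 11151 and 11623 at T0 and 12173, 9949 and 11646 at T6. WT T6 lay above WT T0 without overlap, and the KO groups overlapped. The changes were 0.17 (SE 0.10, adjusted p = 0.247) in WT and 0.010 (SE 0.10, adjusted p = 0.960) in KO, and the group means of Calr spanned the smallest range of any member.

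Creld2 and Manf encode small ER proteins that are induced by ER stress, and MANF is also secreted. The 3 WT arrays read 900.2, 900.4 and 1031 for Creld2 at T0 and 1625, 1375 and 1191 at T6. The KO arrays read 1110.0, 1426 and 1453 at T0 and 1440.2, 1250.3 and 1530.1 at T6. The WT T0 arrays lay below all the other 9. Manf signals went from 2862, 2609 and 2637 (T0) to 4257, 3932 and 3715 (T6) in WT. Those in KO went from 2952, 3557 and 3099.8 to 3635, 3536 and 3624. Manf was likewise lowest in WT T0, and WT T6 lay above all other arrays.

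In WT, Manf rose by 0.55 (SE 0.10, adjusted p = 0.0025), 1.46-fold, under all 22 alternatives, and Creld2 by 0.55 (SE 0.15, adjusted p = 0.022), 1.46-fold. The Creld2 call was lost without replicate 1 (adjusted p = 0.065) or 2 (0.068) of WT T0, and without replicate 1 (0.080) or 2 (0.053) of WT T6. In KO the changes were 0.17 (SE 0.10, adjusted p = 0.252) for Manf and 0.086 (SE 0.15, adjusted p = 0.739) for Creld2, and neither was called.

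Xbp1 encodes the transcription factor of the IRE1 branch, which plasma cells need in order to secrete. The Xbp1 signals were 5529, 4045 and 4162 in WT T0 and 7972, 6268 and 5805 in WT T6 (replicates 1 to 3). In KO cells they were 4622, 5213 and 6664 at T0 and 5961, 6821 and 7595 at T6. The WT groups did not overlap, and in KO they overlapped through KO T0 replicate 3. The changes were 0.54 (SE 0.18, adjusted p = 0.055) in WT and 0.31 (SE 0.18, adjusted p = 0.277) in KO. The WT value just missed the threshold and was called without WT T0 replicate 1 (change 0.69, adjusted p = 0.033), without KO T0 replicate 3 (0.044), with 64 added in place of 16 (0.043), with a filter at percentile 60 (0.035) and with median centring (0.023). Splicing of Xbp1 mRNA was not analysed here.

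The order of the 4 groups by level differed between members, and most neighbours in it overlapped. For Hspa5, Pdia6, Calr, Manf and Hsp90b1 the order ran from WT T6 through KO T6 to the T0 groups, and the neighbours without overlap were WT T6 and KO T6 for Hspa5 and Manf, KO T6 and KO T0 for Pdia6, and KO T0 and WT T0 for Manf. For Creld2 and Xbp1 it ran from KO T6 through WT T6 and KO T0 to WT T0, where the Creld2 step from KO T0 to WT T0 had no overlap. For Dnajb9 it ran from WT T0 through KO T0 and KO T6 to WT T6, with KO T6 and WT T6 overlapping, and for Herpud1 from KO T0 through WT T0 and KO T6 to WT T6, with the T0 groups overlapping. Pdia4 ran from KO T0 through WT T6 and WT T0 to KO T6. All neighbouring groups overlapped for Pdia4, Calr, Xbp1 and Hsp90b1. Over the 10 genes the SD between arrays of a group had a median of 0.13 in WT T0, 0.12 in WT T6, 0.18 in KO T0 and 0.12 in KO T6 (log2, n = 3 each), and reached 0.34 for Hsp90b1 in KO T0.

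The comparison of genotypes asked whether the ER genes differed without intact Scap. No member was called at T0 or at T6 by limma: 0 of 10 in each, where 0.0380% and 0.106% of all genes were called. At an unadjusted p under 0.05 there were 2 members at T0 (Creld2 and Manf) and 1 at T6 (Hspa5), beside 1289 and 1552 of all genes. The 95% intervals of the 10 differences together spanned -0.50 to 0.81 at T0 and -0.58 to 0.53 at T6 (log2).

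At T0, 8 of the 10 differences were positive, higher in KO, and their median was 0.20 beside -0.00031 over all genes. Creld2 stood at 0.48 (95% interval 0.15 to 0.81, adjusted p = 0.420) and Manf at 0.24 (0.027 to 0.45, adjusted p = 0.479), each without overlap between the groups. Manf lies on chromosome 9, as does Scap, the gene at which the genotypes were made to differ. Dnajb9 lay on the other side, at -0.24 (-0.50 to 0.013, adjusted p = 0.522), also without overlap, and Hspa5 stood at -0.023 (-0.24 to 0.19), or at 0.017 with quantile normalization. The other differences were 0.30 for Hsp90b1, 0.26 for Xbp1, 0.23 for Pdia4, 0.17 for Herpud1, 0.14 for Pdia6 and 0.023 for Calr. The weaker Pdia6 probe set lay on the other side at T0, at -0.41 (95% interval -0.82 to -0.0088, adjusted p = 0.520 by limma). Groups lay apart for 2 members that were higher and 1 that was lower, and for 8.15% and 8.52% of all genes (16.7% together).

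At T6, 4 differences were positive and 6 negative, with a median of -0.082 beside 0.043 over all genes. With median centring Xbp1 and Creld2 turned negative. Hspa5 stood at -0.23 (95% interval -0.44 to -0.014, adjusted p = 0.397), Pdia4 at -0.23 (-0.58 to 0.11, adjusted p = 0.578) and Manf at -0.14 (-0.35 to 0.076, adjusted p = 0.602), with all KO arrays below the WT arrays. For Hspa5 this held on its strongest probe set only. The other Hspa5 probe sets gave -0.017 and 0.081 at T6, with overlapping groups. Herpud1 stood at 0.25 (-0.028 to 0.53, adjusted p = 0.471), with all KO arrays above. The rest were 0.12 for Dnajb9, 0.030 for Xbp1, 0.016 for Creld2, -0.042 for Hsp90b1, -0.12 for Pdia6 and -0.13 for Calr. The weaker Hsp90b1 probe set gave -0.37 at T6 (adjusted p = 0.342 by limma). Over all genes, KO lay above WT without overlap for 10.8% and below it for 8.01% (18.8% together).

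The activation changes of the genotypes were set against each other through the interaction, the KO change minus the WT change. It was called for 0 of the 10 members by limma (adjusted p = 0.9997 for each) and for 0% of all genes, and 2 members (Manf and Dnajb9) and 602 of all genes had an unadjusted p under 0.05. The interaction was negative for 8 members, with a median of -0.25 beside 0.040 over all genes. It was -0.47 for Pdia4 (95% interval -0.95 to 0.019), -0.46 for Creld2 (-0.93 to 0.00079), -0.38 for Manf (-0.68 to -0.076), -0.34 for Hsp90b1 (-0.80 to 0.12) and 0.36 for Dnajb9 (0.0045 to 0.72). It was -0.26 for Pdia6, -0.23 for Xbp1, -0.20 for Hspa5, -0.16 for Calr and 0.079 for Herpud1, with intervals that all held 0. The 4 rises in WT and 1 in KO are therefore not shown to differ. The interaction, both activation changes and both genotype differences share arrays, so these values are not independent of each other.

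**Figure D3:**
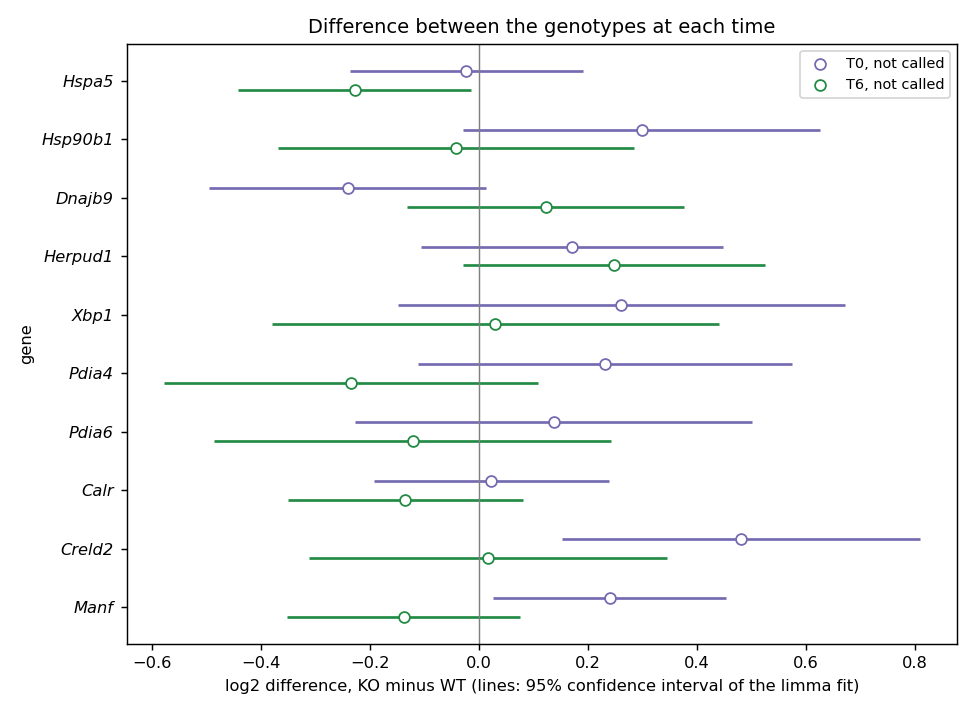
The log2 difference KO minus WT of each of the 10 genes is plotted on the x axis at T0 and at T6 (points: fitted difference; lines: 95% confidence interval). No member was called. Creld2 lies farthest from 0, at 0.48 at T0.

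Markers of some other cells moved with these comparisons. All 7 plasma cell markers, among them Jchain, Mzb1 and Derl3, were higher in KO at both times, with medians of 0.94 at T0 and 0.89 at T6 (log2). By limma 0 were called, and 5 and 4 had an unadjusted p under 0.05. Their summed signal was 6953 to 13324 in WT T0 and 14644 to 23192 in KO T0, and 7079.6 to 12448 in WT T6 and 13105 to 19031 in KO T6, so the genotypes did not overlap at either time. Plasma cells are rich in Xbp1 and in ER chaperones. The B cell markers lay on the same side, 7 of 7 at each time with medians of 0.89 and 1.54, and all 7 had an unadjusted p under 0.05 at T6. Of 7 tested myeloid markers 7 were higher at each time, with 0.52 and 0.75, and Tyrobp at T6 was the 1 marker called between the genotypes (1.68, adjusted p = 0.045). Both tested erythroid markers were higher in KO, with medians of 3.35 at T0 and 2.73 at T6 and 0 called by limma, and 1 of them, Slc4a1, had an unadjusted p under 0.05 at each time. Hba-a1, also of that list, lay under the filter, with group means of 4.46 to 4.95. The CD8 T cell markers were lower in KO, 7 of 7 at each time, with medians of -0.26 and -0.32. By limma 0 of them were called, and 2 at T0 and 3 at T6 had an unadjusted p under 0.05. Cd3e lay lowest of them, at -0.83 (adjusted p = 0.177) at T0 and -0.94 (0.055) at T6. The tested NK cell markers, Klrd1 and Klrk1, were lower too, with medians of -0.18 and -0.29 and 0 called by limma. Of the CD4 list, Zbtb7b stood at 1.19 and 0.18 and Cd40lg at -0.22 and -0.14, with none called. The part of these cells in the genotype values of Creld2, Manf, Xbp1 and the other members was not tested.

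Of 7 tested myeloid markers, 6 fell on activation in each genotype. Their summed signal went from 13343 to 17916 in WT T0 down to 816 to 2131 in WT T6, and from 19239 to 24732 in KO T0 to 2112 to 3653 in KO T6, with a median of -4.35 in WT and -3.94 in KO. Plasma cell markers had a median of -0.45 in WT and -0.36 in KO, and the 1 of 7 called in each was Pou2af1, which rose, by 1.49 and 1.16. B cell markers were lower at T6, 7 of 7 in each genotype, with a median of -1.09 and 2 called in WT (Cd74 and Blk) and of -0.56 and 0 called in KO by limma, where 0 had an unadjusted p under 0.05. Of the 7 CD8 T cell markers 6 were lower at T6 in each genotype, with medians of -0.43 and -0.45, and 4 fell in each: Cd3g, Cd8a, Cd8b1 and Cd2. NK cell markers had medians of -0.043 in WT and -0.16 in KO, with 0 called by limma. Of the erythroid markers, Slc4a1 was highest on the KO arrays of replicate 2, at 13.51 (T0) and 13.79 (T6) against 7.01 to 8.86 in WT (log2). The part of these cells in the activation changes of Dnajb9, Herpud1 and the other members was not tested. With the KO arrays numbered 2 left out at both times, 6 members were called in WT and 3 in KO. The remaining KO arrays still read 10.1 to 12.3 for Slc4a1 (log2), so this does not test the part of erythroid RNA.

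Of the 21 probe sets, 20 passed the filter on low signal; the second Pdia4 probe set lay above it on 0 arrays. The other members measured by more than 1 tested probe set were Xbp1 (4), Hspa5 and Calr (3 each), and Hsp90b1, Herpud1 and Pdia6 (2 each). In a fit over 24543 probe sets, 6 of the 20 were called higher and 2 lower in WT (22.0% of all called), and 1 higher and 2 lower in KO (19.6% called). For 2 of the 3 Hspa5 probe sets WT activation gave 0.33 and 0.36, both called, and for the third (of the x_at class, whose probes can be shared with other sequences) -0.099 (adjusted p = 0.616). The 4 Xbp1 probe sets lay close together at 0.39 to 0.54, and 1 of them was called (adjusted p = 0.049).

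The other genes with several probe sets were compared likewise. The second Pdia6 probe set, a weak one, gave 0.15 in WT (adjusted p = 0.605) beside the 0.90 of the strong one. The second Herpud1 probe set gave -0.30 in WT and -0.38 in KO, the same direction with neither called. The 3 Calr probe sets gave 0.17 to 0.29 in WT with none called. The second Hsp90b1 probe set gave 0.43 in WT and -0.23 in KO, an interaction of -0.66 (adjusted p = 0.848). No probe set of a member was called between the genotypes, where 0.0163% (T0) and 0.477% (T6) of all probe sets were, or for the interaction, where 0% were. At an unadjusted p under 0.05 limma gave 3, 2 and 2 of the 20. In the fit by gene, 1289, 1552 and 602 of all 13166 genes passed that threshold.

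**Figure D4:**
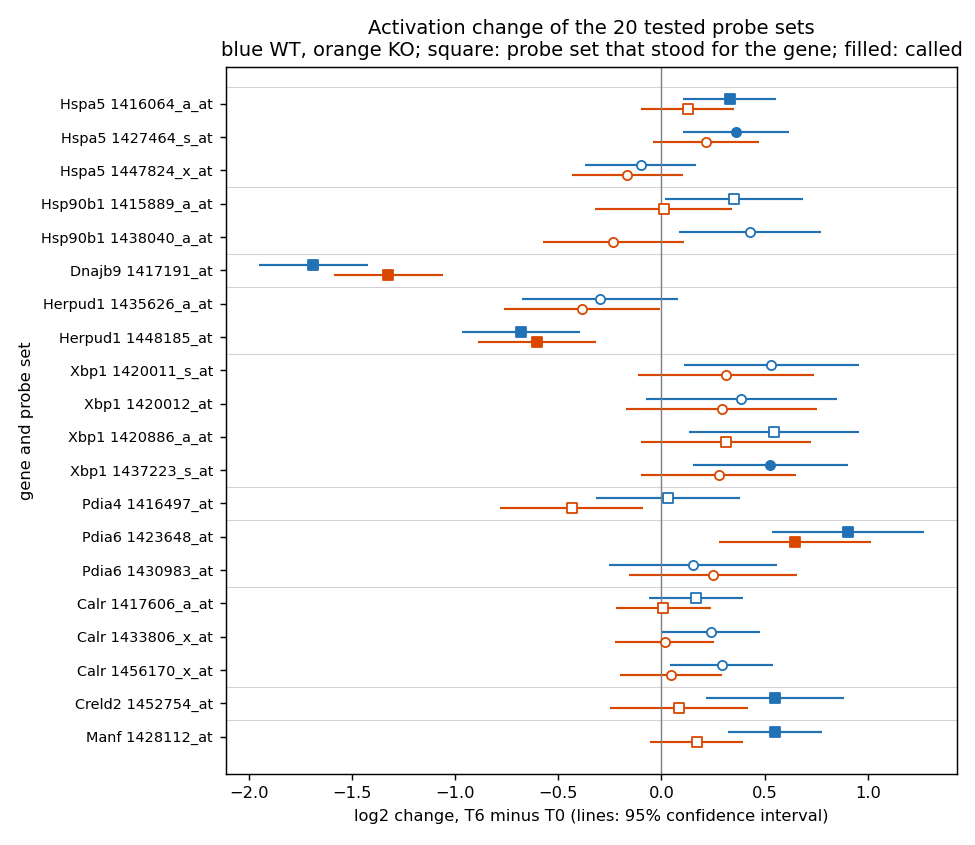
The log2 change from T0 to T6 is plotted on the x axis for each of the 20 tested probe sets, grouped by gene on the y axis, in WT (blue) and KO (orange) with 95% confidence intervals; squares mark the probe set that stood for the gene and filled marks a call. The 4 Xbp1 probe sets lie together at 0.39 to 0.54 in WT, while those of Hspa5 lie from -0.099 to 0.36.

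Set against the promoter letters, the 5 members with an ERSE match (Hspa5, Calr, Hsp90b1, Pdia6 and Creld2) had a median WT change of 0.35, with 3 called higher and 0 lower, where 11.3% of all genes were called higher and 13.8% lower and their median was -0.062. Herpud1, with ERSE-II, fell, and the 3 members without a match were Dnajb9, which fell, and Xbp1 and Pdia4, which were not called. Outside the 10 genes, 9 tested genes held an ERSE match. Of these 0 were called higher and 3 lower in WT (Adcy3 at -0.38, Dnajc3 at -0.42 and Pan2 at -0.41), with a median of -0.38. Another 7 held ERSE-II, with 2 higher, Dnajb11 at 0.63 and Rcl1 at 0.84, and 1 lower, Rbm39 at -0.54. Genes with either element lay on both sides of 0. Adcy3, Pan2, Rcl1 and Rbm39 were chosen after their values were seen, as genes called in these sets.

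The rest of the pathway was read from 6 lists, each given by its counts in WT activation, where 11.3% of all genes were called higher and 13.8% lower. Of 9 sensors and their transducers 2 rose and 0 fell: Atf6 at 0.51 (adjusted p = 0.010) and its paralogue Atf6b at 0.40 (0.043). The protease gene Mbtps1 stood at -0.22 (0.066). The Atf6b call was lost under 11 of 22 alternatives: without any 1 of the WT arrays except WT T6 replicate 2, without any KO T0 array or KO T6 replicate 1 (adjusted p 0.051 to 0.144), and under 2 other settings. Of 7 genes of PERK signalling 0 rose and 2 fell. These were Ppp1r15a, which encodes the stress-induced phosphatase subunit that restores translation, at -2.38 (adjusted p = 4.3e-04), and Dnajc3, which encodes an ER co-chaperone, at -0.42 (0.032). The Dnajc3 call was lost under 7 of 22 alternatives, among them without WT T0 replicates 1 or 2 or WT T6 replicates 2 or 3 (adjusted p 0.050 to 0.109).

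Of 25 other chaperones and folding enzymes 3 rose and 0 fell: Dnajb11, another BiP partner, at 0.63 (adjusted p = 4.0e-04), P4hb, the major disulfide isomerase, at 0.42 (0.0047), and Ero1a, the oxidase of the disulfide pathway, at 0.56 (0.014; 0.051 without WT T6 replicate 2). Of 19 degradation genes 4 rose and 1 fell, with Vcp, the segregase that extracts proteins from the ER, at 0.55, its partner Nploc4 at 0.45, the conjugating enzyme Ube2g2 at 0.44, Derl2 at 0.35 and Edem2 at -0.36. With the mean of all probe sets Ube2g2 was at 0.35 (adjusted p = 0.245). The Edem2 call held under 5 of 22 alternatives. It was lost without any 1 array except WT T0 replicate 2 and KO T6 replicate 1 (adjusted p 0.052 to 0.150), and the value was -0.049 with the mean of all probe sets (0.852). Of 25 genes of ER entry and N-glycosylation 9 rose and 1 fell. The rises with the smallest p were those of Rpn1, of the oligosaccharyltransferase, at 0.73, Sec61a1, the channel subunit, at 0.46, and Spcs3, of the signal peptidase, at 0.39, and the fall was that of Sec11c, of the signal peptidase too, at -0.77. With the mean of all probe sets Sec61a1 was at 0.14 and not called (adjusted p = 0.355). Of 19 genes of transport to the Golgi 4 rose and 1 fell, with the coat subunits Sec13 at 0.47 and Sec23b at 0.42, Sar1a at 0.33, Kdelr2 at 0.39 and, in the other direction, Sec24d at -0.58. The Sec24d call was lost without WT T0 replicate 2 (adjusted p = 0.055) or WT T6 replicate 3 (0.051). The Sar1a call was lost without replicate 1 or 2 of WT T0 or 1 or 3 of WT T6 (0.055 to 0.081), and the Kdelr2 call without 7 of the 12 arrays in turn, which were WT T0 replicates 1 and 2, all of WT T6, KO T0 replicate 3 and KO T6 replicate 1 (0.053 to 0.116). Derl2, Edem2, Sec11c, Sar1a and Kdelr2 were added to these sentences after their values were seen. The list medians lay between -0.17 (PERK signalling) and 0.22 (ER entry).

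**Figure D5:**
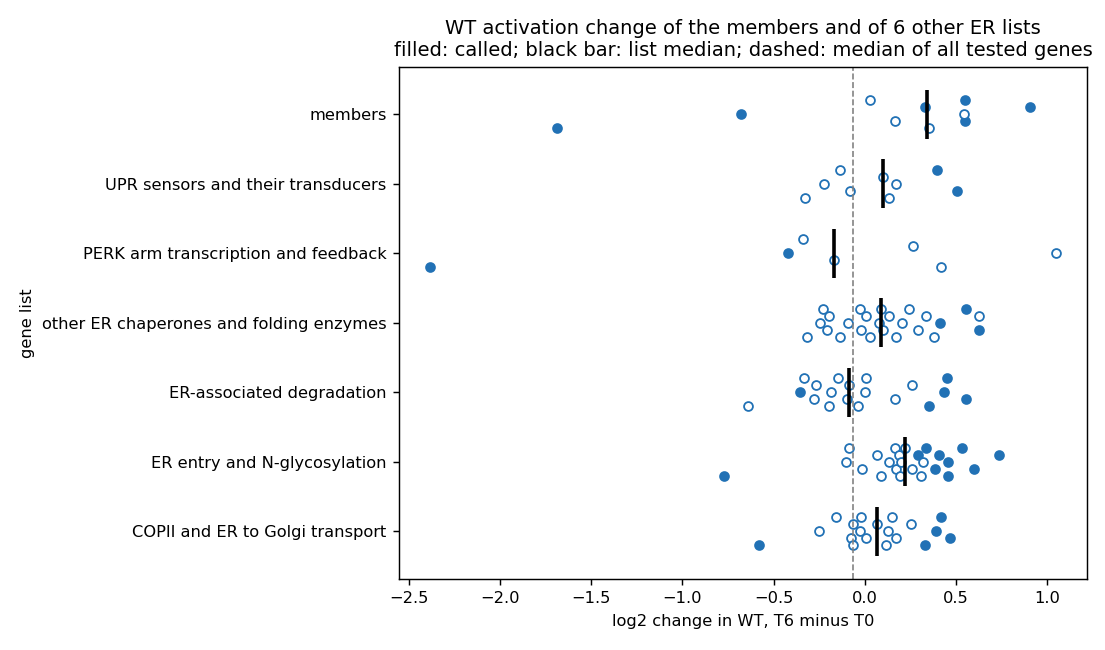
The log2 change in WT from T0 to T6 is plotted on the x axis for each gene of the 10 members and of the 6 other ER lists (filled: called; black bar: list median; dashed line: median of all tested genes, -0.062). The members' median of 0.34 lies above those of the other lists, which reach 0.22, and Ppp1r15a lies lowest at -2.38. Members and lists were chosen with earlier results of these data known, so the order of the medians is no test.

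In KO the same lists held 2, 1, 2, 2, 6 and 2 genes called higher and 0, 2, 0, 2, 0 and 0 called lower, in the order above, where 10.4% of all genes were called higher and 10.5% lower. Trib3, a pseudokinase induced by ATF4, rose by 2.62 (adjusted p = 0.0019), from signals of 43.1, 60.7 and 58.0 to 276, 973 and 255, and stood at 2.02 without KO T6 replicate 2. In WT its values were 70.7, 77.4 and 54.3 at T0 and 211, 121 and 147 at T6, a change of 1.05 that was not called (adjusted p = 0.100). Ppp1r15a fell by 1.16 in KO, from 4821, 5071 and 4963 to 1725, 4058 and 1521, and KO T6 replicate 2 was again the highest of its group. Its call was lost without any 1 of the other 5 KO arrays (adjusted p 0.057 to 0.084). Ern1, which encodes IRE1, stood at 0.58 in KO (adjusted p = 0.048), a call lost under 14 of 22 alternatives, among them without any 1 array except WT T6 replicates 1 and 2 and KO T0 replicate 1 (adjusted p 0.060 to 0.129). Ern1 stood at 0.38 without KO T0 replicate 2 and at 0.091 with the mean of all probe sets (0.808). Atf6b rose by 0.57 (adjusted p = 0.010; 0.054 in a separate fit) and Atf6 stood at 0.34 (0.066). Dnajb11 rose by 0.41 (0.0053) and Dnajc3 fell by 0.81 (0.0014), each under all 22 alternatives.

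Sar1a, the GTPase that starts coat assembly, rose in KO by 0.54 (adjusted p = 0.0022; 0.93 with the mean of all probe sets) and Srprb, of the receptor for the signal recognition particle, by 0.53 (0.0075), and Rnf5, a ubiquitin ligase, fell by 0.40 (0.012). Sec61a1 rose by 0.38 (0.0056), but stood at 0.051 with the mean of all probe sets (0.763). Nploc4 rose by 0.38 (0.013; 0.050 without KO T0 replicate 3). The KO calls of 5 more genes were lost under many alternatives. Ero1a, at 0.46 (0.037), lost its call without WT T6 replicate 3, any KO T0 array or KO T6 replicates 1 or 2 (0.052 to 0.105). Ost4, of the oligosaccharyltransferase, at 0.33 (0.022), lost it without KO T0 replicates 2 or 3 or KO T6 replicates 1 or 3 (0.066 to 0.079), and stood at 0.17 with the mean of all probe sets. Vcp, at 0.36 (0.027) and named after its value was seen, lost it without KO T0 replicates 2 or 3 or any KO T6 array (0.054 to 0.094). Edem2, at -0.42 (0.026), lost it without KO T0 replicates 1 or 3 or KO T6 replicates 2 or 3 (0.057 to 0.091), with the replicate number as a block (0.067), and with the mean of all probe sets (-0.034). Sec13, at 0.28 (0.037), lost it with that block (0.080) and without 8 of the 12 arrays in turn, which were WT T0 replicate 2, WT T6 replicates 1 and 3, all of KO T0, and KO T6 replicates 1 and 3 (0.050 to 0.120). P4hb at 0.22 (0.092) and Kdelr1 at -0.35 (0.078) were not called.

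Between the genotypes no gene of the 6 lists was called by limma at T0, at T6 or for the interaction. At an unadjusted p under 0.05 there were 8, 9 and 6 of 104, beside 1289, 1552 and 602 of all 13166 genes. The smallest adjusted p was 0.320 at T0, for Syvn1, the ubiquitin ligase of ER degradation, at 0.32. At T6 it was 0.182, for Dnajb11 at -0.33, followed by Ern1 at 0.74 (0.188), which stood at 0.16 with the mean of all probe sets. Derl3, at 0.48 and 0.65, belongs to both the degradation list and the plasma cell markers.

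The genes most like Hspa5 over the 12 arrays, by Pearson correlation of log2 signal, were Dnajc13 (r = 0.943), Ube2g1 (0.938), Dnajb6 (0.936), Pigm (0.931) and Thap4 (0.921). For Xbp1 they were Epb41l4b (0.911), Pde8a (0.903), Map3k8 (0.902), AA467197 (0.899) and Adipor2 (0.895). Among the members Pdia6 was nearest to both, at 0.835 with Hspa5 and 0.848 with Xbp1, while Dnajb9 lay at -0.698 and -0.682. After subtraction of the group means, the genes named first for Hspa5 stood lower, at 0.689 to 0.868, and those for Xbp1 at 0.784 to 0.856. Hspa5 and Herpud1, at -0.638 before, then stood at 0.896. Hspa5 and Pdia4 went from 0.135 to 0.876, and Hspa5 and Dnajb9 stood at 0.486. These correlations over 4 groups of 3 arrays describe these arrays only, since arrays share their group and their scaling.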

How the data were processed

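RNA of 12 arrays was analysed, 3 for each of 4 groups. The deposited values are linear signal intensities per probe set, made by the authors with GCOS per the submitters' processing notes; its version, background step and summary method are not given in the sources used here. Probe sets were named by the platform's annotation: 34945 of 45101 had 1 gene symbol, 932 had several, 9160 had none and 64 were controls. Signals were taken as log2(signal + 16), which understates changes of weak signals, with no further normalization. A gene was its probe set of highest mean signal, kept when 3 or more arrays had it above their percentile 40 (13166 of 18193 genes). The 4 groups were fitted together in limma 3.58.1 (R 4.3.3; lmFit, then eBayes; two-sided), with p adjusted by Benjamini-Hochberg over all genes; 24543 probe sets were fitted likewise. The fit was also run on simulated arrays drawn independently of each other, which says nothing of arrays that share a source. Tables and plots were made with Python 3.11.15, pandas 2.3.3, numpy 2.4.6 and matplotlib 3.10.9. Errors are SE of the fit unless named SD.

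The 10 genes, the 6 ER lists and the marker lists were chosen with earlier results of these data known. All members are named in every comparison, up to 3 genes of each list by smallest p in each activation comparison (for the genotype comparisons and the interaction, where no list gene was called, the rule's list genes are given by counts and the smallest p), and the 5 genes most correlated with Hspa5 and with Xbp1; exceptions are stated. The settings tried were 22 (21 for the interaction): other added constants, filters, scalings and fits, and each array left out. Promoters came from RefSeq (GRCm38.p6). After subtraction of group means, T0 and T6 arrays of the same number correlated at 0.18, 0.47 and 0.38 in KO, so the numbers were taken to pair the KO arrays, by the data alone; in WT they did not (0.22, -0.058 and -0.11). The number of arrays limits the precision, and p-values measure the spread between these arrays. Scan dates were not used here.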

Additional observations from a re-analysis of the deposited data

How the results depend on the processing

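The number of members called ranged over the arrays left out 1 at a time from 4 to 7 in WT activation and from 2 to 4 in KO activation, and over the other settings from 5 to 8 and from 2 to 4. For the genotype differences and the interaction it was 0 under each of them. Dnajb9 and Herpud1 in both genotypes, and Manf and Pdia6 in WT, were called under all 22 settings, Creld2 in WT under 17, Hspa5 in WT under 13 and Pdia6 in KO under 17. Of the values of called members under the alternatives, 179 kept their side of the threshold and 19 lost it; of those of uncalled members 850 kept it, 12 passed it and 30 changed sign. Median centring moved the median of all genes in WT activation by 0.12 (log2).

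The changes of sign were all among uncalled values. The one farthest from 0 in the main fit was Pdia6 between genotypes at T0, at 0.14. With quantile normalization Hspa5 stood at 0.017 between genotypes at T0, and Hsp90b1 at -0.050 and Calr at -0.021 in KO activation. With the mean of all probe sets Hspa5 stood at 0.084 and Pdia6 at -0.14 at T0, Hsp90b1 at -0.11 in KO activation, and Herpud1 at -0.0043 for the interaction. The weaker Pdia6 probe set, which enters that mean, stood at -0.41 at T0. With median centring Xbp1 stood at -0.037 and Creld2 at -0.050 at T6, and without the KO arrays numbered 2 at both times Pdia6 stood at 0.0042 at T6. With 1 array left out, the difference between genotypes at T0 ranged over -0.11 to 0.051 for Hspa5 and -0.027 to 0.055 for Calr. At T6 it ranged over -0.064 to 0.16 for Xbp1, -0.092 to 0.13 for Creld2 and -0.19 to 0.0042 for Pdia6. The activation change ranged over -0.10 to 0.17 for Pdia4 in WT, and over -0.18 to 0.12 for Hsp90b1, -0.049 to 0.096 for Calr and -0.038 to 0.17 for Creld2 in KO, and the interaction over -0.0013 to 0.19 for Herpud1. The cause was not tested.

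The replicate numbers were taken to pair the KO arrays and not the WT arrays. With a replicate block within each genotype, 6 members were called in WT and 3 in KO, and 0 for the interaction. Xbp1 in WT was then called (adjusted p = 0.010) and Creld2 in WT was not (0.055). Between genotypes 0 were called, but there the block joined WT and KO arrays of the same number. Nothing in the labels pairs WT with KO arrays, so nothing is drawn from that 0. In KO activation the block changed no member's call. In KO every array correlated best with its own number, in WT only replicate 1 did. WT T0 replicate 2 correlated best with WT T6 replicate 3 (0.19), and WT T0 replicate 3 with WT T6 replicate 2 (0.23). The WT block paired arrays by number, so its values for Xbp1 and Creld2 rest on pairs that these correlations do not bear out.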
